A study of Rattus norvegicus with 22 samples.

Results

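Transcript levels of 6 genes of the renin-angiotensin system, Agt, Ace, Agtr1a, Enpep, Mme and Atp6ap2, were followed in the left kidneys of 22 polycystic rats. The genes were chosen for their place in the system and were found by their Entrez Gene numbers, which are 24179 for Agt, 24310 for Ace, 24180 for Agtr1a, 64017 for Enpep, 24590 for Mme and 302526 for Atp6ap2. All 6 were among the 17334 genes listed, and all 6 passed the filter on low counts that left 12867 genes for testing.

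Every animal was a male PKD/Mhm (Cy/+) rat, which carries a single copy of the Cy mutation in Anks6 and develops slowly enlarging kidney cysts, and every kidney was taken at 8 months of age. Since the control rats carry Cy too, the groups differ in treatment and not in genotype, and no kidney without cysts was analysed here. 6 rats were untreated, 6 received human adipose-derived stromal cells (ASC) intraperitoneally (i.p. ASC), 6 received ASC intravenously (i.v. ASC), and 4 received CM, medium conditioned by ASC. The cells were given as 2000000 per injection, monthly for 6 months, and CM was given over the same 6 months. The labels give no route for CM, and a control injection for the untreated rats is not given in the sources used here. Whole-kidney RNA was sequenced, and each library held between 12195682 and 14734772 estimated reads assigned to genes. The labels do not link any rats by litter or batch, so p-values measure the spread between single animals.

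The renin-angiotensin system is a chain of proteolytic steps that sets blood pressure, salt retention and, within the kidney, tubular and vascular tone. Angiotensinogen (Agt) is cut into angiotensin I, and angiotensin-converting enzyme (Ace) turns this into angiotensin II, which acts on the type 1 receptor encoded in the rat by Agtr1a and Agtr1b. Aminopeptidase A (Enpep) and neprilysin (Mme) are membrane peptidases of the proximal tubule brush border and of glomerular cells that break angiotensins down, and Atp6ap2, the prorenin receptor, is also an accessory subunit of the vacuolar proton pump (V-ATPase). In the kidney Agt is made mainly by proximal tubule cells.

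4 libraries of the i.v. ASC group were marked for urothelial RNA. Rats 3, 9, 10 and 13 of the i.v. ASC group had summed levels of 4 urothelial markers (the uroplakins Upk1a, Upk1b, Upk2 and Upk3a) of 312, 499.2, 19.84 and 116.2 TPM (transcript levels scaled for gene length and library depth), and no rat outside the i.v. ASC group was above 14.33 TPM. These are the same 4 rats that held the highest Agt and Mme levels of the i.v. ASC group, and i.v. ASC values without them are given beside those that moved. The rule could mark only i.v. ASC rats. Rat 10 was close to untreated rat 23, at 14.33 TPM, and i.p. ASC rat 7, at 10.2 TPM, which were not marked. Rats called without urothelial RNA below are all rats but these 4. Tubule transcripts also differed between rats within every group, and not all in the same direction, as described later. Slc7a13, an amino acid transporter of the last segment of the proximal tubule, had the widest range of the 12 proximal tubule markers. It ran from 10.2 TPM in untreated rat 1 to 2308 TPM in CM rat 2, and up to 483 TPM among untreated kidneys. By itself it does not measure how much tubule a kidney held. In whole-kidney RNA, fewer cells of a type and less RNA per cell cannot be told apart.

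The stretches upstream of the start site are shown for 4 of the genes because they fell into 3 patterns over the rats, described later. Enpep and Mme rose and fell together, Agtr1a went the other way, and Atp6ap2 varied with neither. RefSeq (build GRCr8) gave a promoter for 5 of the 6 genes, Agt being the one without an entry, and the 250 bases before each start are printed 5′ to 3′ on the gene's strand. Capitals mark 3 motifs, found on either strand, which are the TATA box (TATAAA), the GC box (GGGCGG) and the CCAAT box (CCAAT).
Enpep, chr2:220526219-220526468, minus strand: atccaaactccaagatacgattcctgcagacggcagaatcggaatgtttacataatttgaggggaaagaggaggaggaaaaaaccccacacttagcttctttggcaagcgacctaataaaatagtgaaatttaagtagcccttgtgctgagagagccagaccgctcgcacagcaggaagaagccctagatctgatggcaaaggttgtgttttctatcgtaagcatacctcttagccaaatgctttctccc
Mme, chr2:149872247-149872496, plus strand: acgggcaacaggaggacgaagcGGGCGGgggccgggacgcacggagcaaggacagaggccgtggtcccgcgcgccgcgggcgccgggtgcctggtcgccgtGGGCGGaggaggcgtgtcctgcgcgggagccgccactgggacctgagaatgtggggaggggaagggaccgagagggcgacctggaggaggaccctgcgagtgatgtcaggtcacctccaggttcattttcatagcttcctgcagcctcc
Agtr1a, chr17:34435433-34435682, minus strand: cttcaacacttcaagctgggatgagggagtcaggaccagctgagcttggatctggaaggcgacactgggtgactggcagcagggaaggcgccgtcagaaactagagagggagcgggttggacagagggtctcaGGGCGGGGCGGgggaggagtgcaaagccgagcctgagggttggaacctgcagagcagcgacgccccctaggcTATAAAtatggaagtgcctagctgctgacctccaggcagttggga
Atp6ap2, chrX:12883671-12883920, minus strand: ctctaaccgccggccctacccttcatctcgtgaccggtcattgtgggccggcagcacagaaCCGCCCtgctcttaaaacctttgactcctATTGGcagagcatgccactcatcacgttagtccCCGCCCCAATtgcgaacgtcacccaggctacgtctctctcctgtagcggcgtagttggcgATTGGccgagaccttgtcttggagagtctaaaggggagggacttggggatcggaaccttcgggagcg
The Enpep stretch held none of the 3 motifs and had a GC content of 45.2%, below the median of 51.2% over all 33469 RefSeq promoters of this length. The Mme stretch held 2 GC boxes at a GC content of 70.4%. The Agtr1a stretch held 2 GC boxes, which overlap by 1 base, and a TATA box that begins 45 bases before the start. The Atp6ap2 stretch held 3 CCAAT boxes and 2 GC boxes, with one of each overlapping. The Ace stretch, which is not printed, lies at chr10:91409879-91410128 on the plus strand and held 4 GC boxes at a GC content of 69.2%, and a TATA box on the opposite strand. Of all promoters, 12.9% held the TATA box, 30.5% the GC box and 34.0% the CCAAT box. The half-site GTTAAT of the tubular factor HNF1, held by 6.45% of promoters, and the E-box CACGTG, held by 5.59%, were in none of the 5 stretches, which says only that these letters are not in this window.

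The 6 genes covered a wide range of levels. Atp6ap2 was the most abundant, with a mean of 229 ± 34.0 TPM (SD, n = 22), above 96.09% of the genes listed. Mme followed at 102 ± 69.1 TPM and Enpep at 74.1 ± 34.0 TPM. Agt had a mean of 37.1 ± 30.5 TPM, Agtr1a of 14.5 ± 5.86 TPM and Ace of 5.15 ± 1.85 TPM, the last of these above 41.35% of the genes listed. The order did not hold in every kidney. Enpep was above Agt in 22 of 22 rats, Agtr1a above Ace in 20, Atp6ap2 above Mme in 19 and Mme above Enpep in 17, but Agt was above Agtr1a in only 14, so these neighbours were not separated beyond the spread between rats.

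**Figure D1:**
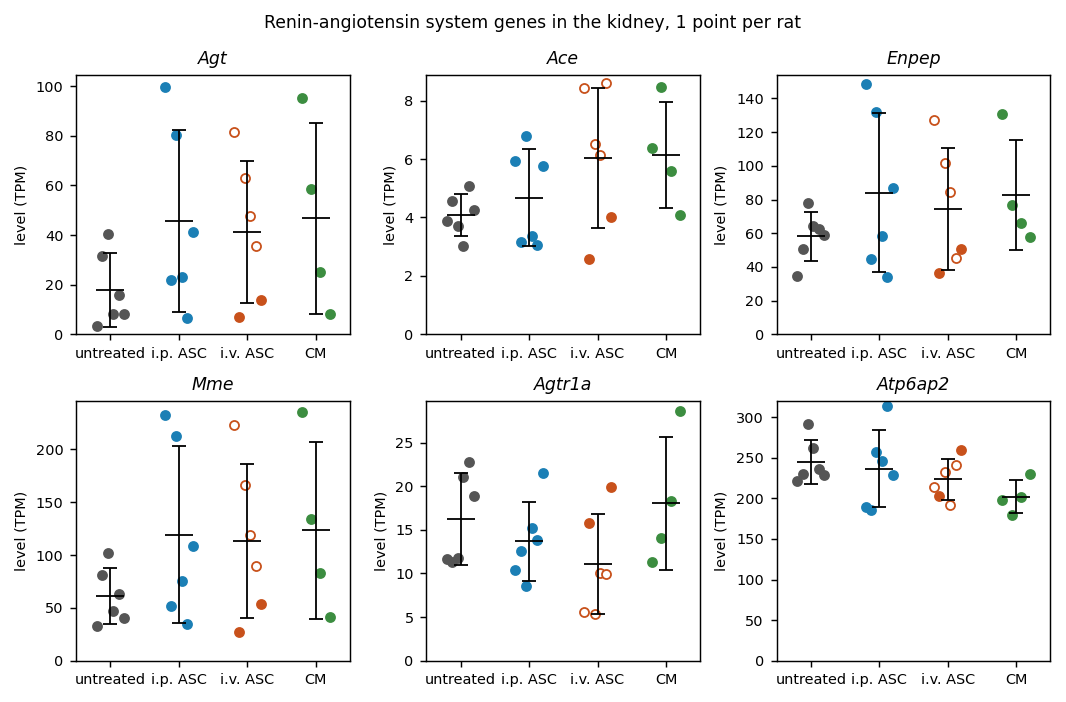
Levels (TPM, linear axis from 0) of the 6 genes in each rat by treatment, with 1 point per rat and bars for mean ± SD (n = 6, 6, 6 and 4). Open points are the 4 i.v. ASC rats with urothelial RNA. The groups overlap for every gene, the treated groups spread further upward than the untreated group for Agt, Ace, Enpep and Mme, and Atp6ap2 stays between 179.7 and 313.4 TPM.

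Angiotensinogen, the substrate of the whole system, was the most variable of the 6 genes. In untreated kidneys Agt ran from 3.48 TPM through a median of 11.98 to 40.3 TPM. In i.p. ASC kidneys it ran from 6.52 through 32.4 to 99.8 TPM, and in i.v. ASC kidneys from 7.06 through 41.7 to 81.4 TPM. The 4 CM kidneys had 95.4, 58.4, 25.3 and 8.23 TPM. 3 i.p. ASC, 3 i.v. ASC and 2 CM kidneys were above every untreated kidney, and each treated group also held a kidney below the untreated median of 11.98 TPM, so the groups overlapped. The highest rat, i.p. ASC rat 5, had 28.7 times the level of the lowest, untreated rat 1. The biological coefficient of variation that edgeR estimated within groups was 82.4% for Agt, above that of 99.26% of the genes tested, against a median of 15.7%.

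Agt was on average higher than in untreated kidneys in each treated group, but no difference passed the test. The log2 fold change was 1.45 with i.p. ASC (95% interval -0.08 to 2.99, edgeR quasi-likelihood test with Benjamini-Hochberg adjustment over all genes, adjusted p = 0.771), 1.31 with i.v. ASC (-0.23 to 2.84, adjusted p = 0.523) and 1.49 with CM (-0.17 to 3.16, adjusted p = 0.715). The 3 comparisons share the untreated rats and are not independent of each other. Few genes had larger estimates, as 0.513% of the genes tested were above Agt with i.p. ASC, 1.06% with i.v. ASC and 0.699% with CM. From the 2 rats of the i.v. ASC group without urothelial RNA, the estimate was -0.795. Slc7a13 was chosen as a covariate after the data were seen and had the highest r with Agt of all genes compared (0.99). With its level in the model the estimates were therefore drawn to near 0, at 0.135, 0.11 and 0.06. This fit cannot separate treatment from what the 2 genes share. With the mean of the proximal tubule markers in the model instead, the estimates were 0.629, 0.98 and 0.931.

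Ace, which makes angiotensin II and is found on endothelium and on the proximal tubule brush border, was the least abundant of the 6. Untreated kidneys ran from 3.03 TPM through a median of 4.07 to 5.09 TPM, and i.p. ASC kidneys from 3.07 through 4.57 to 6.80 TPM. I.v. ASC kidneys ran from 2.58 through 6.32 to 8.59 TPM, and the CM kidneys had 6.39, 8.46, 5.59 and 4.09 TPM. 4 of 6 i.v. ASC and 3 of 4 CM kidneys were above every untreated kidney, while i.v. ASC rat 8 was below all of them. Ace was the 1 gene of the 6 with 95% intervals that left out 0, with a log2 fold change of 0.68 with i.v. ASC (0.10 to 1.27) and 0.67 with CM (0.03 to 1.31), against 0.29 with i.p. ASC (-0.29 to 0.88). After adjustment over all genes by edgeR none was called, with adjusted p = 0.523, 0.711 and 0.811. An unadjusted p below 0.05 was reached by 8.81% of all genes in the i.v. ASC comparison and by 6.6% in the CM comparison. The 4 i.v. ASC rats above every untreated rat were those with urothelial RNA, and without them the i.v. ASC estimate was -0.27.

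Enpep, which removes the first residue of angiotensin II, had a narrower spread than Agt. Untreated kidneys ran from 34.9 TPM through a median of 60.8 to 78.1 TPM, i.p. ASC kidneys from 33.9 through 72.5 to 148 TPM, and i.v. ASC kidneys from 36.7 through 67.5 to 127 TPM. The CM kidneys had 131, 76.5, 65.9 and 57.8 TPM. 3 i.p. ASC, 3 i.v. ASC and 1 CM kidney were above every untreated kidney, and the lowest value of all was i.p. ASC rat 16. The log2 fold changes were 0.625 (-0.17 to 1.42), 0.48 (-0.31 to 1.275) and 0.59 (-0.28 to 1.47) with i.p. ASC, i.v. ASC and CM, and none was called (edgeR, adjusted p = 0.771, 0.591 and 0.798).

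Mme, neprilysin, which cleaves angiotensins and natriuretic peptides, followed Agt closely. Untreated kidneys ran from 33.1 TPM through a median of 55.1 to 102.0 TPM, i.p. ASC kidneys from 34.6 through 91.8 to 232 TPM, and i.v. ASC kidneys from 27.2 through 104 to 222.5 TPM. The CM kidneys had 235, 134, 82.8 and 41.8 TPM. The rats with the highest level were CM rat 2 and i.p. ASC rat 5, and the lowest was i.v. ASC rat 8, so here too the treated groups held both ends of the range. The log2 fold changes were 1.04 (-0.10 to 2.18), 0.998 (-0.14 to 2.14) and 1.10 (-0.15 to 2.35) with i.p. ASC, i.v. ASC and CM, with adjusted p = 0.771, 0.523 and 0.717 by edgeR. With the Slc7a13 level in the model these were -0.035, -0.065 and -0.031 for Mme and -0.081, -0.163 and -0.047 for Enpep. Slc7a13 had r = 0.96 with Mme and 0.87 with Enpep, so this fit cannot separate treatment from what they share. With the mean of the proximal tubule markers in the model instead, the estimates were 0.378, 0.614 and 0.571 for Mme and 0.141, 0.192 and 0.166 for Enpep. Without the 4 rats with urothelial RNA the i.v. ASC estimates were -0.62 for Mme and -0.385 for Enpep.

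Agtr1a, the main type 1 angiotensin receptor of the rat kidney, found on vessels, mesangial and interstitial cells and tubules, moved differently. Untreated kidneys ran from 11.3 TPM through a median of 15.3 to 22.8 TPM, i.p. ASC kidneys from 8.57 through 13.2 to 21.5 TPM, and i.v. ASC kidneys from 5.35 through 9.96 to 19.9 TPM. The CM kidneys had 11.3, 14.04, 18.2 and 28.6 TPM. The 4 rats with urothelial RNA were the i.v. ASC rats below every untreated rat, and CM rat 21 was the highest of all. The log2 fold changes were -0.16 (-0.73 to 0.42), -0.45 (-1.03 to 0.13) and 0.21 (-0.425 to 0.85) with i.p. ASC, i.v. ASC and CM (edgeR, adjusted p = 0.894, 0.537 and 0.933). Without the 4 rats with urothelial RNA the i.v. ASC estimate was 0.21. Agtr1a and Agtr1b are near-identical copies, and the estimated count of each was not whole in 4 of 22 rats, so some reads were divided between them.

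Atp6ap2, the prorenin receptor and V-ATPase subunit, was the steadiest of the 6. Untreated kidneys ran from 221 TPM through a median of 233 to 292 TPM, i.p. ASC kidneys from 185 through 238 to 313 TPM, and i.v. ASC kidneys from 191 through 223 to 259.7 TPM. The CM kidneys had 198, 179.7, 201 and 229.5 TPM, of which 3 of 4 were below every untreated kidney. The highest and lowest rats differed 1.74-fold, and the biological coefficient of variation was 13.5%, near the median of 15.7%. The log2 fold changes were 0.04 (-0.17 to 0.25), -0.02 (-0.23 to 0.19) and -0.21 (-0.44 to 0.03) with i.p. ASC, i.v. ASC and CM (edgeR, adjusted p = 0.932, 0.944 and 0.717), and -0.017 with i.v. ASC without the 4 rats with urothelial RNA. As fold changes, these 95% intervals ran from 0.887 to 1.19 times the untreated level with i.p. ASC, from 0.852 to 1.14 times with i.v. ASC and from 0.736 to 1.02 times with CM.

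The question whether cell or CM treatment altered the system was thus left with 0 of 6 genes called in each comparison. The background is that 0 of 12867 genes (0%) were called with i.p. ASC, i.v. ASC or CM by edgeR, against 0 (0%), 22 (0.171%) and 5 (0.0389%) by DESeq2, none of them among the 6. At an unadjusted p below 0.05, the 6 genes gave 0, 1 and 1 with i.p. ASC, i.v. ASC and CM, against 3.89%, 8.81% and 6.6% of all genes. A test of any difference among the 4 groups called 11 genes (0.0855%), again none of the 6, each of which had adjusted p = 0.912 (529 genes, 4.11%, had an unadjusted p below 0.05, none of the 6). Of the 6 estimates 5, 4 and 5 were above 0 with i.p. ASC, i.v. ASC and CM, against 46.2%, 47.5% and 49.1% of all genes. The median log2 fold change over the 6 genes was 0.46, 0.58 and 0.63, against -0.014, -0.011 and -0.003 over all genes tested. Agt, Ace, Enpep and Mme varied together over the rats, as described later, and the comparisons share the untreated rats. These counts and medians are therefore not of 6 independent genes. Without the 4 rats with urothelial RNA, 1 of the 6 i.v. ASC estimates was above 0 and their median was -0.33, against -0.02 over all genes.

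**Figure D2:**
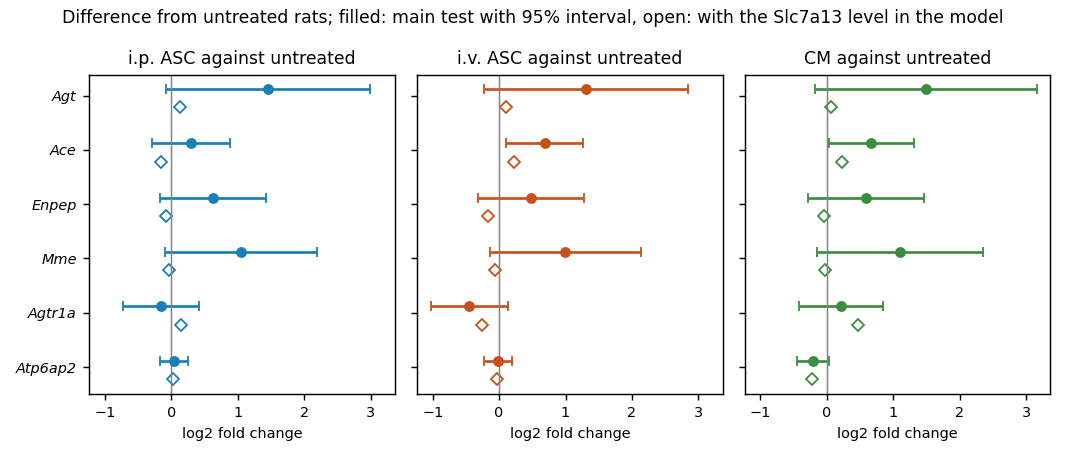
Log2 fold change of each gene against untreated rats with i.p. ASC, i.v. ASC and CM (linear axis on the log2 scale). Filled points with bars are the edgeR estimates with 95% intervals and open diamonds are the estimates with the Slc7a13 level in the model. Only the Ace intervals with i.v. ASC and CM leave out 0, and the diamonds of Agt, Mme and Enpep lie between -0.163 and 0.135.

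Of 17 further genes that make, cut or bind angiotensins, 12 passed the filter on low counts and none was called by edgeR in any comparison (lowest adjusted p = 0.523), with 8, 6 and 7 of the 12 above 0 with i.p. ASC, i.v. ASC and CM. Their median log2 fold changes were 0.05, -0.02 and 0.03, against -0.014, -0.011 and -0.003 over all genes. Unadjusted p was below 0.05 for 0, 2 and 1 of them, all lower than untreated. These were Agtr1b and Mas1 with i.v. ASC and the kallikrein Klk1 with CM. Without the 4 rats with urothelial RNA the i.v. ASC estimates were -0.48 for Agtr1b and -0.07 for Mas1, and none of the list then had an unadjusted p below 0.05.

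The aminopeptidase Anpep was the most abundant angiotensin-degrading peptidase of the brush border measured, at 253 ± 174 TPM, with log2 fold changes of 1.11, 0.985 and 1.19. The prolyl peptidase Prep averaged 50.3 ± 25.8 TPM, with 0.75, 0.65 and 0.84. Agtr1b averaged 2.25 ± 1.87 TPM, with -0.47, -1.47 and -0.51, and the receptor Mas1, which binds a shorter angiotensin, 0.45 ± 0.25 TPM, with 0.17, -1.07 and 0.04. None of these 4 was called by edgeR. Without the 4 rats with urothelial RNA the i.v. ASC estimates of Anpep and Prep turned to -0.52 and -0.29.

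Of the remaining genes, 7 had small estimates. Their log2 fold changes lay between -0.25 and 0.12 in all 3 comparisons for the aminopeptidases Lnpep and Rnpep, the carboxypeptidases Prcp and Ctsa, the endopeptidases Thop1 and Nln and the receptor-associated protein Agtrap. Klk1, a kallikrein of the connecting tubule, averaged 1361 ± 620.3 TPM, with larger estimates of 0.04, -0.39 and -0.92 (edgeR, lowest adjusted p = 0.603) and 0.21 with i.v. ASC without the 4 rats with urothelial RNA. The estimated counts of Klk1, Prcp and Agtrap were not whole in 22 of 22 rats and those of Ctsa in 19, so these share reads with other transcripts. 5 genes were too low to test. Agtr2, the type 2 receptor, was listed at 0 in 20 rats with at most 1 read, Mrgprd at 0 in 21 rats with at most 1 read, and the mast cell and neutrophil proteases Ctsg, Cpa3 and Cma1 had at most 5, 6 and 11 reads in a rat.

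Over the 22 rats, with all groups pooled, the 6 genes fell into 3 patterns. Correlations within any group alone were not computed, so whether each group shows these patterns was not tested. Agt, Ace, Enpep and Mme rose and fell together, Agtr1a went against them, and Atp6ap2 was unrelated to the other 5. All correlations are of log2 CPM (counts scaled to library depth), with permutation tests of 100000 resamples and p adjusted over the 15 pairs. The closest pair was Agt and Mme, with r = 0.97 and rho = 0.98. Enpep and Mme had r = 0.93 and rho = 0.87, and Agt and Enpep r = 0.87 and rho = 0.85, each of these 3 with adjusted p = 3.75e-05, from the smallest p the resamples can give. Ace had r = 0.84 with Mme, 0.82 with Agt and 0.69 with Enpep (adjusted permutation p = 9e-05, 3.75e-05 and 0.00122, and rho = 0.83, 0.81 and 0.64). These 6 relations kept r between 0.67 and 0.98 without the 2 rats farthest from the median of 1 gene of each pair, between 0.70 and 0.97 with each treatment group's mean subtracted, and between 0.77 and 0.97 in the 18 rats left without those with urothelial RNA.

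Agtr1a was negatively related to the 4 enzymes and substrate. Its r was -0.625 with Mme, -0.59 with Ace, -0.57 with Agt and -0.47 with Enpep (adjusted permutation p = 0.00366, 0.00658, 0.0087 and 0.0404), and rho was -0.56, -0.54, -0.55 and -0.30 (adjusted permutation p = 0.0169, 0.0171, 0.0171 and 0.254). With Enpep the relation was therefore present by r and not called by rho. With group means subtracted r was -0.715, -0.68, -0.64 and -0.56, and without the 4 rats with urothelial RNA it was -0.49, -0.32, -0.445 and -0.32. Atp6ap2 had r between -0.24 and 0.07 with the other 5 genes, with adjusted permutation p of 0.387 or higher.

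Some further genes of the system followed these patterns. In 72 relations of the 6 genes with the 12 further genes tested, Anpep followed Agt and Mme, with r = 0.97 and 0.99 and rho = 0.985 and 0.99, and Prep followed Mme and Enpep, with r = 0.94 and 0.93 and rho = 0.96 and 0.86 (adjusted permutation p for r = 8e-05, from the smallest p the resamples can give). Agtr1a instead rose with Agtr1b, with r = 0.84 and rho = 0.77 (adjusted permutation p = 8e-05 and 0.000648), and the reads divided between these copies stand beside this value. It was 0.74 without the 2 rats farthest from the median of Agtr1b, 0.87 with group means subtracted and 0.69 in the 18 rats without urothelial RNA. Agtr1b had r = -0.63 with Ace, -0.56 with Mme, -0.53 with Agt and -0.41 with Enpep (adjusted permutation p = 0.0062, 0.016, 0.0244 and 0.104, rho = -0.53, -0.47, -0.50 and -0.20). Without the rats with urothelial RNA these 4 were -0.42, -0.38, -0.37 and -0.21.

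**Figure D3:**
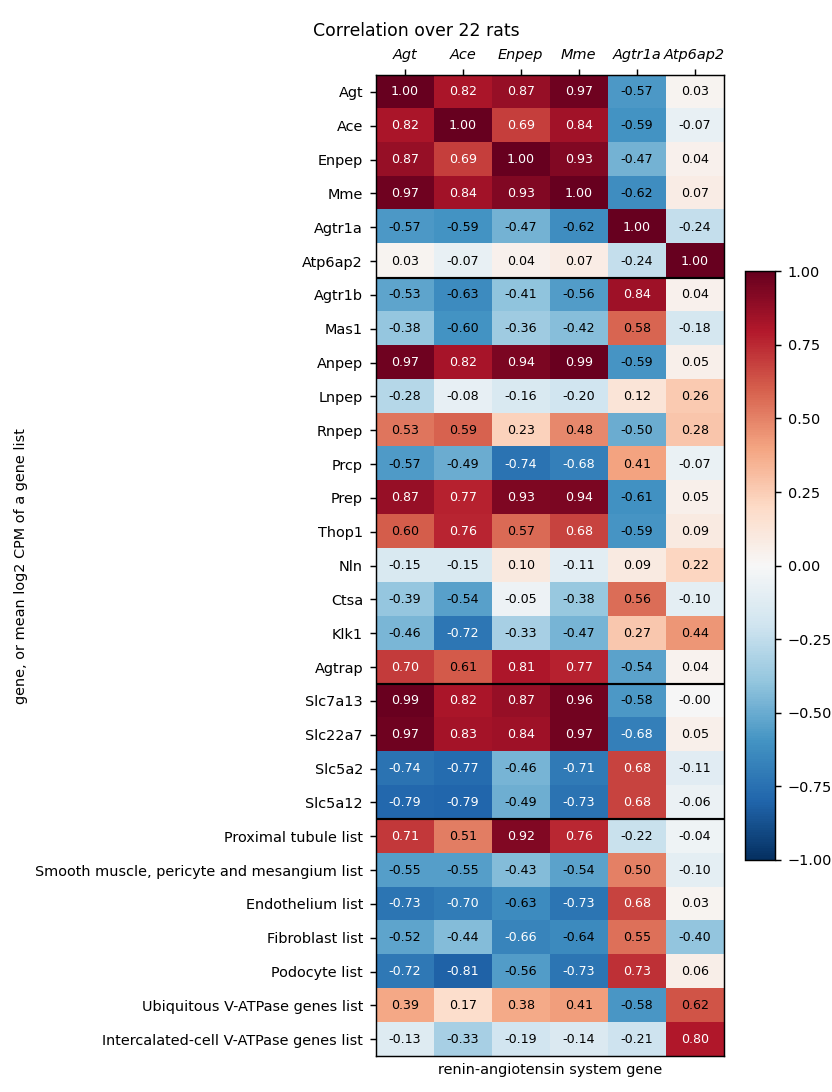
Pearson r of log2 CPM over 22 rats between the 6 genes (columns) and, from the top, each other, the 12 further genes of the system, 4 proximal tubule genes and the mean of 7 gene lists (rows), on a colour scale from -1 to 1. Agt, Ace, Enpep and Mme share their rows' signs for most genes, Agtr1a shows the opposite sign, and Atp6ap2 has its highest values with the V-ATPase lists.

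Each gene was next set beside marker genes of the cell types in which it is known to be made. 24 relations were tested, of the 6 genes with the mean log2 CPM of 4 marker lists, with p adjusted over the 24. Enpep had the closest relation with the 12 proximal tubule markers, with r = 0.92 and rho = 0.95 (adjusted permutation p = 0.00024, from the smallest p the resamples can give). Mme had r = 0.755 and rho = 0.74, Agt r = 0.71 and rho = 0.73, and Ace r = 0.51 and rho = 0.55 (adjusted permutation p for r = 0.00096, 0.00125 and 0.023). Without the 2 farthest rats these 4 were 0.90, 0.68, 0.605 and 0.39, and in the 18 rats without urothelial RNA 0.92, 0.77, 0.74 and 0.59. Agtr1a had r = -0.22 and Atp6ap2 r = -0.05 with the same markers (adjusted permutation p = 0.374 and 0.882, rho = -0.19 and 0.002). Outside this list, the thick limb gene Umod had r = 0.89 with Agt, 0.88 with Mme, 0.75 with Enpep and 0.73 with Ace. Umod was compared singly and carries no test. A high r with these 4 genes was thus not particular to proximal tubule markers.

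The proximal tubule markers did not all vary alike, and the 6 genes separated along them. The following values describe single markers and carry no test, since the markers were split after their values were seen. Agt had r = 0.99 with Slc7a13 and 0.97 with the organic anion transporter Slc22a7, both of the late segment, and r = -0.74 with the glucose transporter Slc5a2 and -0.79 with the lactate transporter Slc5a12, both counted as early-segment genes. Mme had 0.96, 0.97, -0.71 and -0.735 with the same 4 genes, and Ace 0.82, 0.835, -0.77 and -0.79. Enpep had 0.87, 0.845, -0.46 and -0.49, and was closest to the endocytic receptor Lrp2, with r = 0.98, and to the factor Hnf4a, with r = 0.96. Agtr1a had -0.58, -0.68, 0.68 and 0.68. These 4 genes do not stand for the whole list. Among the rest of the list Agt had r = 0.83 with Lrp2, 0.82 with Hnf4a and 0.65 with Slc22a6. It also had 0.64 with Slc34a1, 0.63 with Cubn and 0.375 with Slc13a3, but -0.14 with Slc22a8 and -0.50 with Slc6a19. Mme and Ace had the same signs as Agt with each of these genes.

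The means of the 8 endothelial markers, of the 8 smooth muscle, pericyte and mesangial markers and of the 8 fibroblast markers rose with Agtr1a. Single genes could differ from their list. With i.v. ASC 7 of 8 endothelial estimates were below 0 but that of Vwf was 1.18 (-0.08 without the 4 rats with urothelial RNA). Agtr1a had r = 0.68 with the endothelial list, 0.50 with the smooth muscle list and 0.55 with the fibroblast list (adjusted permutation p = 0.00195, 0.023 and 0.0155, rho = 0.615, 0.47 and 0.51). The pericyte receptor Pdgfrb of the smooth muscle list had 0.90 alone. It was picked after its value was seen, carries no test, and no other gene of that list was compared singly. Without the 2 farthest rats these lists gave 0.65, 0.37 and 0.57, and in the 18 rats without urothelial RNA 0.59, 0.52 and 0.56. Agt, Ace, Enpep and Mme had r of -0.73, -0.70, -0.63 and -0.73 with the endothelial list (adjusted permutation p between 0.00096 and 0.00434, rho from -0.69 to -0.41). Ace, an enzyme of endothelium as well as tubule, was thus lower in the kidneys where the mean of this list was higher. With the fibroblast list these 4 genes had -0.52, -0.44, -0.66 and -0.64 (adjusted permutation p = 0.0204, 0.0555, 0.00291 and 0.00434, rho = -0.52, -0.43, -0.61 and -0.59). Subtracting group means moved r with the fibroblast list farther from 0, to -0.74, -0.725, -0.83 and -0.85, and to 0.67 for Agtr1a. With the smooth muscle list the same 4 genes had -0.55, -0.55, -0.435 and -0.54 (adjusted permutation p = 0.0155, 0.0155, 0.0559 and 0.0176, rho = -0.50, -0.47, -0.17 and -0.45). With group means subtracted, r with the smooth muscle list was -0.51, -0.52, -0.40 and -0.50 for these 4 genes and 0.51 for Agtr1a, close to the values above, and the lowest adjusted permutation p, of resamples within groups, was 0.0505. Atp6ap2 had r between -0.40 and 0.03 with the 3 lists (lowest adjusted permutation p = 0.0801).

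A further 18 relations, with 6 podocyte markers and 2 sets of V-ATPase genes, were added after the first had been seen and were adjusted among themselves. Agtr1a rose with the podocyte markers, with r = 0.73 and rho = 0.73 (adjusted permutation p = 0.00042), while Ace, Mme, Agt and Enpep had r of -0.81, -0.73, -0.72 and -0.56 (adjusted permutation p = 0.00018, 0.000504, 0.000504 and 0.0165, rho = -0.71, -0.71, -0.74 and -0.435). Without the 2 farthest rats these were 0.74, -0.77, -0.62, -0.64 and -0.38, and in the 18 rats without urothelial RNA 0.55, -0.705, -0.67, -0.67 and -0.54. The podocyte markers were lower than in untreated kidneys in all 3 treated groups, with 6 of 6 log2 fold changes below 0 and medians of -0.37, -0.80 and -0.58, none called by edgeR (lowest adjusted p = 0.523), and without the 4 rats with urothelial RNA the i.v. ASC median was -0.024. The part of podocytes, vessels and tubule segments in the levels of the 6 genes was not tested.

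Atp6ap2 varied with the proton pump of which its product is a part. With 15 ubiquitous V-ATPase genes it had r = 0.625 and rho = 0.55 (adjusted permutation p = 0.00474 and 0.0218), and with the 5 V-ATPase genes known from acid-secreting intercalated cells, such as Atp6v1g3 and Atp6v0a4, r = 0.80 and rho = 0.75 (adjusted permutation p = 0.00018 and 0.000945). Without the 2 farthest rats these were 0.50 and 0.66, with group means subtracted 0.57 and 0.75, and in the 18 rats without urothelial RNA 0.66 and 0.80. All 5 intercalated-cell genes were below untreated in CM kidneys, as Atp6ap2 was, with a median log2 fold change of -0.43, and 4 had an unadjusted p below 0.05, against 6.6% of all genes, although none was called (edgeR, lowest adjusted p = 0.711). Of the 15 ubiquitous genes, 9 were below untreated in CM kidneys, with a median of -0.08, and 13 and 12 were above with i.p. ASC and i.v. ASC, with medians of 0.09 and 0.06. Agtr1a had r = -0.58 with the ubiquitous genes (adjusted permutation p = 0.0107, rho = -0.62, and -0.56 without the 2 farthest rats).

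**Figure D4:**
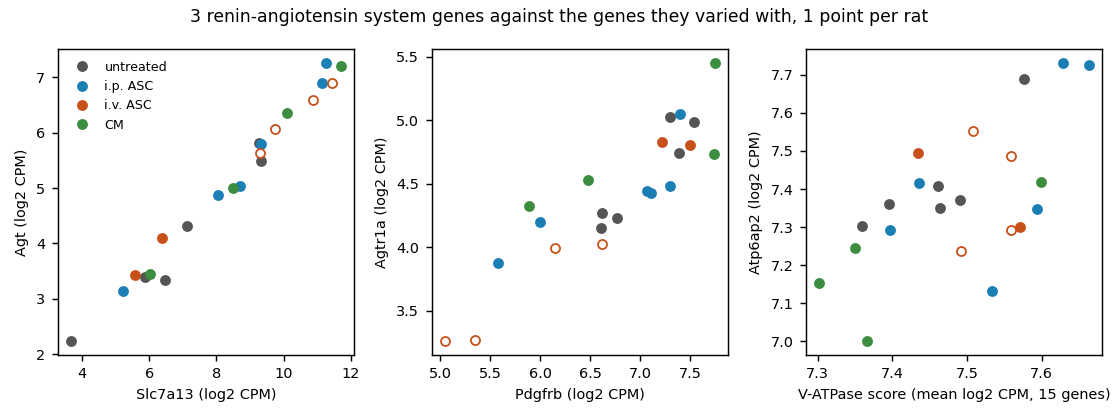
Log2 CPM of Agt against Slc7a13, of Agtr1a against Pdgfrb, and of Atp6ap2 against the mean of 15 ubiquitous V-ATPase genes, with 1 point per rat coloured by treatment and open points for the 4 i.v. ASC rats with urothelial RNA. Agt follows Slc7a13 through all groups (r = 0.99), Agtr1a rises with Pdgfrb (r = 0.90), and Atp6ap2 rises with the V-ATPase genes with more scatter (r = 0.625). Slc7a13 and Pdgfrb were picked after their values were seen. The mean of the list of 8 genes that holds Pdgfrb had r = 0.50 with Agtr1a.

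The genes most like each of the 6 over the 22 rats, among 12866 compared, were also found, as a description without a test. Agt was closest to Slc7a13, the cation transporter Slc22a2 and the anion transporter Slco1a3, each with r = 0.99, and 224 genes had r above 0.9. Mme was closest to the peptide transporter Slc15a2, to Gclm, a subunit of the enzyme that starts glutathione synthesis, and to Anpep, each with r = 0.99, and Enpep to the glutamate transporter Slc1a1 (0.99), the aspartoacylase Aspa (0.98) and Lrp2 (0.98). 443 genes had r above 0.9 with Mme and 460 with Enpep, so a high r was common for these 3. Ace was closest to the kinase subunit Prkar2b (0.91), the phospholipase Pld1 (0.89) and the chaperone Hspa2 (0.89), with 1 gene above 0.9. Agtr1a was closest to the laminin chain Lamc3 (0.94), the pericyte and fibroblast protein Cd248 (0.90) and the secreted Wnt antagonist Sfrp1 (0.90), with 1 gene above 0.9. Atp6ap2 had no gene above 0.9, and was closest to the peroxisomal protein Hsdl2 (0.87), to Arhgap18 (0.84) and to the endosomal syntaxin Stx7 (0.82).

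8 other brush-border peptidases and their partners were compared with the members, of which Anpep also belongs to the further genes of the system. 7 of 8 were above untreated in each comparison, with median log2 fold changes of 1.06, 1 and 1.19 against -0.014, -0.011 and -0.003 over all genes, and none was called by edgeR (lowest adjusted p = 0.771, 0.523 and 0.711). The most abundant, gamma-glutamyltransferase (Ggt1), had 1.003, 1.015 and 1.18, and Cltrn, collectrin, 0.63, 0.57 and 0.59. The exception was the dipeptidase Dpep1, with -0.26, -0.33 and -0.02. Without the 4 rats with urothelial RNA, 2 of the 8 were above untreated with i.v. ASC and the median was -0.48.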

How the data were processed

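Whole-kidney RNA of 22 rats was sequenced on a BGISEQ-500. Per the labels and the submitters' processing notes, the authors trimmed the reads with Trim Galore 0.6.4 and quantified them with kallisto 0.4.6, build rn6, and deposited estimated counts and TPM per Entrez gene for each rat. Kallisto divides reads between similar transcripts, so 14.1% of the deposited estimated counts were not whole. They were rounded, genes were filtered with filterByExpr, and all 4 groups were fitted together with edgeR 4.0.16 (R 4.3.3, TMM, quasi-likelihood test, Benjamini-Hochberg adjustment, threshold 0.05). Levels are the deposited TPM, which compare genes per length. Symbols came from RefSeq for 17179 of 17334 genes.

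Correlations used log2 CPM with a prior count of 2 and two-sided permutation tests (100000 resamples, scipy). Fits were repeated without the filter or with 10 counts required in every rat, with RLE scaling, on 2 groups at a time, with covariates, without each rat in turn, with limma 3.58.1 on log2(TPM + 1), and with DESeq2 1.42.0. The edgeR script was tested on simulated counts, and no 2 libraries of the same group agreed within sampling noise. The members, gene lists and tests were chosen with earlier results of these data known. Named are the 6 genes, the 17 further genes of the system, at most the 2 most abundant genes of other lists, and for each member the 3 genes of highest r; outside this rule, the aldosterone response and urothelial genes, Dpep1 and single markers were added after their values were seen. Some genes of the system are not reported here.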

Additional observations from a re-analysis of the deposited data

Results flagged for a closer look

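Of 24 sets of values (6 genes in 4 groups, log2 CPM), 1 held a rat far from the others by Dixon's test, about as many as chance gives, which is 1 in 20. Untreated rat 18 had the highest Atp6ap2 of its group, at 292 TPM, and the gap to the next rat was 0.728 of the group's range, above the limit of 0.625 for 6 rats. Without this rat the i.v. ASC log2 fold change of Atp6ap2 was 0.04 in place of -0.02.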

How the results depend on the processing

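None of the 6 genes was called in any of 91 alternative results, each being 1 comparison in 1 alternative fit. Most fits gave several of these results. The lowest adjusted p of a member in a comparison with untreated rats was 0.261. Of 366 alternative estimates of the members' log2 fold changes, 21 were opposite in sign to the reported one. With Slc7a13 as a covariate, chosen after seeing the data, these were -0.15, 0.147, -0.081 and -0.035 for Ace, Agtr1a, Enpep and Mme with i.p. ASC, -0.163 and -0.065 for Enpep and Mme with i.v. ASC, and -0.047 and -0.031 with CM. Leaving out the 4 rats with urothelial RNA, also chosen after seeing the data, they were -0.795, -0.273, 0.208, -0.385 and -0.623 for Agt, Ace, Agtr1a, Enpep and Mme with i.v. ASC, and r of Atp6ap2 was 0.065 with the proximal tubule and 0.052 with the smooth muscle markers. With limma, Atp6ap2 with i.p. ASC was -0.066. Leaving out each rat in turn gave -0.016 to 0.099 for Atp6ap2 with i.p. ASC, -0.049 to 0.041 with i.v. ASC, and -0.073 (without CM rat 21) to 0.342 for Agtr1a with CM. Single rats moved larger estimates by over 1.5 times: without CM rat 2 those with CM were 0.783, 0.509 and 0.219 for Agt, Mme and Enpep, without i.v. ASC rat 3 those with i.v. ASC were 0.663 for Mme and 0.234 for Enpep, and without i.p. ASC rat 5 that of Enpep with i.p. ASC was 0.363. For r of Atp6ap2, centring on groups gave 0.021 with the proximal tubule and -0.007 with the endothelial markers, and log2(TPM + 1) gave 0.288 with the smooth muscle markers. Centring left 0 members called with the smooth muscle markers, against 4, although r was about as large (Agtr1a 0.51 against 0.504, Agt -0.513 against -0.552).

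Counts over all genes moved more. DESeq2 called 22 with i.v. ASC, 5 with CM and 37 among the 4 groups. Fitting CM with untreated rats alone called 1. With the 4 rats with urothelial RNA left out, CM gave 1 and the 4 groups 0. The 4 groups gave 0 with 10 counts required in every rat, 0 with limma and 4 with Slc7a13 as a covariate. Leaving out each rat gave 0 to 14 with i.v. ASC (11 without rat 8, 14 without rat 14) and 0 to 18 among the 4 groups (5 without rat 3 or 13, 0 without rat 9 and 18 without rat 14 of the i.v. ASC group). The cause was not tested. No paired analysis was possible because the rats' numbers are animal numbers that no 2 groups share. Ace, Agtr1b and Mas1 have few reads, which limits their precision, and 5 genes of the system were too low to test.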

Other observations

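Aldosterone acts downstream of angiotensin II on the distal nephron. 8 genes of its action were listed (its receptor Nr3c2, Hsd11b2, which keeps cortisol and corticosterone from that receptor, the kinase Sgk1, the sodium channel subunits Scnn1a, Scnn1b and Scnn1g, and Nedd4l and Tsc22d3). All 8 were below untreated in CM kidneys, with a median log2 fold change of -0.455 against -0.003 over all genes. Those of Nedd4l and Tsc22d3 were near 0, at -0.04 and -0.06. 5 of the 8 had an unadjusted p below 0.05, against 6.6% of all genes, but none was called by edgeR (lowest adjusted p = 0.711). With i.p. ASC 5 and with i.v. ASC 6 of the 8 were below untreated, with medians of -0.021 and -0.117 and 0 at an unadjusted p below 0.05. The most abundant of them, Hsd11b2, averaged 988 ± 85.0 TPM in 6 untreated and 664 ± 182 TPM in 4 CM kidneys, with a log2 fold change of -0.52. Other genes of the distal nephron also had estimates below 0 with CM, which were -0.79 for Slc12a3, -1.09 for Calb1 and -0.92 for Klk1 and included 5 of 5 intercalated-cell V-ATPase genes, none of them called by edgeR (lowest adjusted p = 0.711). Their part in the aldosterone genes was not tested.

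Of the other marker lists, none held a gene called by edgeR in any comparison with untreated rats. The median log2 fold changes with i.p. ASC, i.v. ASC and CM were 0.019, -0.025 and 0.267 for 4 leukocyte markers, 0.109, 0.04 and -0.182 for 5 tubular injury markers, -0.23, -1.025 and -0.612 for 3 blood markers, -0.022, -0.033 and -0.168 for 5 thick ascending limb and distal tubule markers (of which, with CM, the thick limb genes Slc12a1 and Umod had 0.91 and 0.67 and the distal genes Slc12a3 and Calb1 -0.79 and -1.09), and 0.046, 0.437 and -0.065 for 5 collecting duct markers. Without the 4 rats with urothelial RNA, a choice made after seeing the data, the i.v. ASC medians were 0.468, 0.267, -0.905, -0.29 and 0.073 for these 5 lists.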
